A study of Homo sapiens with 12 samples.

Results

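Hyaluronan is a long sugar polymer of the extracellular matrix, and 7 genes of its synthesis, breakdown and cell-surface binding are described here: the synthases HAS2 and HAS3, the hyaluronidases HYAL1, HYAL2 and HYAL3, and the receptors CD44 and HMMR. They were taken by symbol from the platform's annotation of probe sets, using only probe sets that give exactly 1 gene. Of these genes 6 were measured, by 21 probe sets, among 19775 genes in all. The family was chosen by what these arrays had already shown, namely the rise of HAS3 with hypoxia in L3.6pl cells, and the probe sets were selected on their mean intensity. HYAL1 was not analysed here, and neither was the third synthase, HAS1. Where a gene had several probe sets, the one with the highest mean log2 intensity over the 12 arrays gives its main value, and the others are given beside it. These means were 6.80 for the main and 4.47 for the other probe set of HAS3, 3.48 and 2.86 for HAS2, 10.7 and 9.64 for HMMR, and 9.91 for the main and 9.90 for the next of 13 probe sets of CD44. HYAL2 and HYAL3 had 1 probe set each.

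The arrays came from L3.6pl and FG, both human pancreatic carcinoma cell lines that differ in metastatic potential according to the series title. L3.6pl was obtained by passing pancreatic tumour cells through mice and selecting metastases. The 4 groups were L3.6pl in hypoxia, L3.6pl in normoxia, FG in hypoxia and FG in normoxia, with 3 arrays each. Hypoxia means that the last 24 h of culture were spent at 1% oxygen, with nitrogen in place of air, and normoxia means that the flasks were left untreated. All cultures were grown in DMEM with serum from frozen stock, typically for 9 days, until confluent. Replicates are numbered 1 to 3 in the labels, which do not say whether they came from separate cultures, so p-values measure the spread between these arrays, which may be technical.

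Hyaluronan is made at the plasma membrane by the HAS enzymes, which join UDP-glucuronic acid and UDP-N-acetylglucosamine and push the growing chain out of the cell. Hyaluronidases cut the chain: HYAL2 acts largely at the cell surface and HYAL1 in lysosomes, while less is known of the activity of HYAL3. CD44 is the main cell-surface receptor for hyaluronan and occurs in many splice forms. HMMR, also called RHAMM, binds hyaluronan outside the cell and is a spindle protein of dividing cells inside it. Pancreatic carcinomas are known for a matrix rich in hyaluronan.

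The promoter windows below are the 250 bases before the annotated start in RefSeq, build GRCh38.p14, on the strand of the gene. They are shown for HAS3 and CD44, the members that were higher in hypoxic than in normoxic L3.6pl cells, and for HMMR, whose values went with those of mitotic genes. In HAS3 (chr16:69107290-69107539, plus strand) and CD44 (chr11:35138921-35139170, plus strand), capitals mark ACGTG and GCGTG, the core letters bound by hypoxia-inducible factors, read on both strands. In HMMR (chr5:163460382-163460631, plus strand), capitals mark TTTGAA and CCAAT, letters known from promoters of cell cycle genes, also on both strands.
HAS3: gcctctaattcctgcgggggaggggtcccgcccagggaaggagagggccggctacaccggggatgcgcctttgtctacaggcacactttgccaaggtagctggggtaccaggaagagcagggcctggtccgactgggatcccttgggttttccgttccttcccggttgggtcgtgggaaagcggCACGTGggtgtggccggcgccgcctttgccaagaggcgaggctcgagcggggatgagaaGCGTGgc
CD44: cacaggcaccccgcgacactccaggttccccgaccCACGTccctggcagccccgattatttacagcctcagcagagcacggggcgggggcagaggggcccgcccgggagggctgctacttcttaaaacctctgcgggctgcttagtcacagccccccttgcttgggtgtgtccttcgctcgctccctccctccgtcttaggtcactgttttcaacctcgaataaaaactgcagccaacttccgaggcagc
HMMR: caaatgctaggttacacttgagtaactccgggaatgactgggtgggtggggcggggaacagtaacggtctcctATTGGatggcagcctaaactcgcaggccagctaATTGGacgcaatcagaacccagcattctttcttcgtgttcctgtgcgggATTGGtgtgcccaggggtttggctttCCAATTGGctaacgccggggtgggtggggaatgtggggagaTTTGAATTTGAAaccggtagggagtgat
The HAS3 window held ACGTG on both strands, in an overlapping pair that starts 66 and 65 bases before the start, and GCGTG 7 bases before it. The CD44 window held ACGTG once, on the opposite strand, 215 bases before the start. ACGTG was present in 18.5% of 35116 RefSeq windows of this length, GCGTG in 32.2% and at least 1 of them in 43.2%. The HYAL2 window also had GCGTG, 123 bases before the start on the opposite strand, and the first of the HYAL3 windows had ACGTG 211 bases before the start. Neither ACGTG nor GCGTG was in the HMMR window, and the HAS2 window was not examined by itself. The HMMR window held TTTGAA 28 and 22 bases before the start, in tandem, and CCAAT 5 times on both strands, of which 2 overlap. TTTGAA was present in 13.3% and CCAAT in 32.0% of all windows. These matches describe letters and are not evidence of binding.

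Values are log2 intensities, and differences between groups are log2 fold changes ± standard error from 1 limma model over all 12 arrays. A gene is called where its Benjamini-Hochberg adjusted p, over all genes tested, was below 0.05. Of 9 ductal and epithelial markers, all had means above 6.25, the median of all genes, in both L3.6pl groups and in hypoxic FG cells, and 8 did in normoxic FG cells, where SOX9 averaged 5.91. Of the other marker lists, 1 of 6 fibroblast markers in L3.6pl and 2 in FG, 1 of 4 blood and 1 of 4 endothelial markers were above that median. The summed intensity of the fibroblast list was 525 to 1200 on L3.6pl arrays and 2230 to 4530 on FG arrays, but 2 collagen genes carry that sum. COL3A1 was at -4.93 ± 0.384 (limma, adjusted p = 1.67e-05) and COL1A1 at -1.43 ± 0.36 (adjusted p = 0.02) for L3.6pl minus FG in hypoxia, and the other 4, COL1A2, DCN, LUM and PDGFRB, were not called, at -0.16 to 1.9. The median of the list was -0.09 in hypoxia and 0.07 in normoxia. Its part in the differences between the lines was not tested. Of 10 textbook hypoxia genes, 8 were called higher with hypoxia in L3.6pl and 9 in FG, against 3.89% and 4.24% of all genes. ADM, which encodes the peptide adrenomedullin, was up 13.2-fold in L3.6pl and 24-fold in FG. Arrays of a group correlated across genes at r of 0.974 to 0.996, and 3 of them, L3.6pl hypoxia replicate 3, L3.6pl normoxia replicate 1 and FG normoxia replicate 1, had the lowest correlations within their groups. Results that change without them are given both ways. In RNA from a whole culture, fewer cells with a transcript and less of it per cell cannot be told apart.

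**Figure D1:**
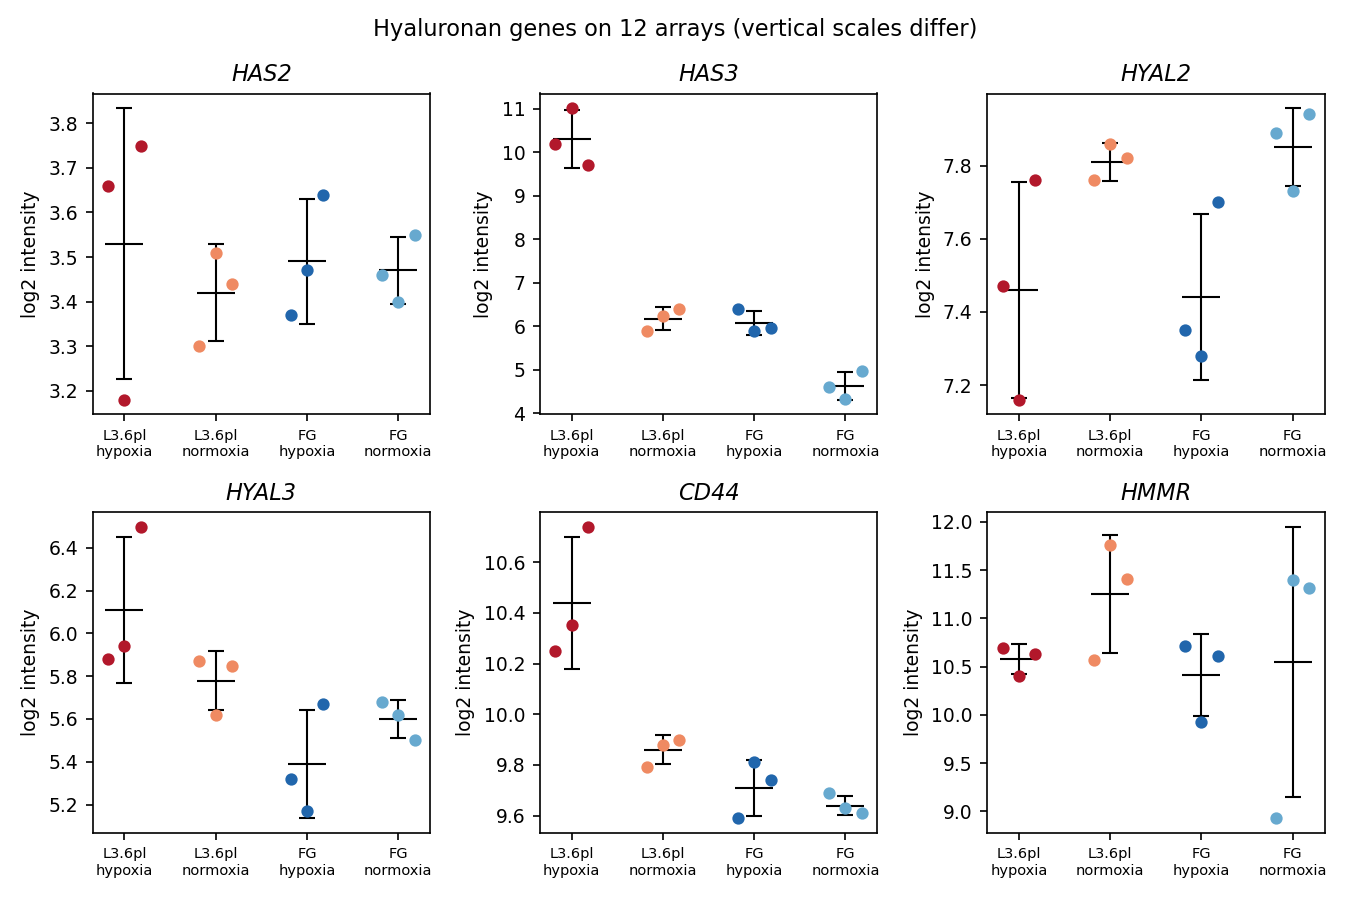
Log2 intensity of the main probe set of each of the 6 measured genes (vertical axes, which differ in scale) on each array, by cell line and oxygen; points are arrays, and bars are the mean ± SD of 3 arrays. HAS3 sits from 9.70 to 11.01 in hypoxic L3.6pl cells, above every other group, while 1 of the FG normoxia arrays lies far below the others for HMMR.

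Of the synthases, HAS3 had by far the widest range over the 4 groups. HAS3 had log2 intensities of 10.18, 11.01 and 9.70 in hypoxic L3.6pl cells, against 5.88, 6.23 and 6.40 in normoxic L3.6pl cells. In FG it had 6.40, 5.89 and 5.96 in hypoxia, against 4.61, 4.33 and 4.96 in normoxia. All hypoxic arrays were higher than all normoxic arrays of the same line. Such groups did not overlap for 24.4% of all genes in L3.6pl and 27.9% in FG. The hypoxic FG arrays covered about the same range as the normoxic L3.6pl arrays. The order of group means was thus L3.6pl in hypoxia (10.30 ± 0.664), L3.6pl in normoxia (6.17 ± 0.262), FG in hypoxia (6.08 ± 0.275) and FG in normoxia (4.63 ± 0.318; SD, n = 3 arrays each). Normoxic L3.6pl and hypoxic FG did not differ beyond their spread. The group means spanned 5.67 log2 units, and 99.9% of genes had a smaller span. The levels and the rise in L3.6pl are given as a description, with no test.

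The rise in L3.6pl was 17.5-fold, or 4.13 ± 0.3 on the log2 scale with a 95% interval of 3.47 to 4.79, and was the second largest log2 fold change of all genes in that comparison. In FG, measured on other arrays, HAS3 rose 2.74-fold (1.45 ± 0.3, interval 0.79 to 2.11; limma, adjusted p = 0.0116), and it was the single member of the 6 called in FG, where 10.7% of all genes were called. HAS3 was higher in L3.6pl than in FG under both conditions. In hypoxia the difference was 18.6-fold (4.21 ± 0.3, interval 3.55 to 4.88), which is a description too, since it uses the hypoxic L3.6pl arrays of the known rise. In normoxia it was 2.9-fold (1.54 ± 0.3, interval 0.88 to 2.2; limma, adjusted p = 0.00766), a comparison that shares the normoxic L3.6pl arrays with that rise. The hypoxia call in FG and the normoxia call between the lines held with any 1 of the 12 arrays left out. Their adjusted p in these limma fits went up to 0.0495, just under the threshold, and 0.037.

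The hypoxia effect on HAS3 was 2.68 ± 0.424 log2 units larger in L3.6pl than in FG, a 6.4-fold difference with an interval of 1.74 to 3.61. This difference contains the known rise and is given with no test. It was 2.98 without L3.6pl hypoxia replicate 3, the lowest of the 3 hypoxic L3.6pl arrays for HAS3, and 2.84 without all 3 arrays that stood apart. Over the 2 probe sets of HAS3 the median of this difference was smaller, at 1.3. The rise in L3.6pl that enters it ran from 3.77 to 4.43 with any 1 of the 12 arrays left out. Of the other 5 members, limma called 0 for a difference of hypoxia effects, as for all but 0.0253% of genes, and CD44 had an unadjusted p below 0.05. Same-numbered arrays of the 2 lines deviated together within each oxygen condition. With the replicate number within oxygen condition as a block, limma again called 0 of the other 5, where 3.55% of all genes were called.

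The HAS3 result rests on 1 of its 2 probe sets. The dimmer probe set had 4.66, 4.22 and 4.75 in hypoxic and 4.55, 4.33 and 4.55 in normoxic L3.6pl cells. Its values were 4.42, 4.31 and 4.74 in hypoxic and 4.04, 4.40 and 4.61 in normoxic FG cells. These groups overlapped, and its hypoxia differences were 0.07 ± 0.183 in L3.6pl (limma over all probe sets, adjusted p = 0.902) and 0.14 ± 0.183 in FG (adjusted p = 0.724). A further probe set is shared between HAS3 and another gene in the annotation and was not used. With the mean of both probe sets, the hypoxia differences were 2.1 in L3.6pl and 0.8 in FG, and the hypoxia call in FG and the normoxia call between the lines held.

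HAS2, the synthase associated with long chains and with embryonic development, was near the low end of the measured log2 values, which ran from 1.96 to 14.46. It had 3.66, 3.18 and 3.75 in hypoxic and 3.30, 3.51 and 3.44 in normoxic L3.6pl cells. In FG it had 3.37, 3.47 and 3.64 in hypoxia and 3.46, 3.40 and 3.55 in normoxia. The groups overlapped in every comparison. The hypoxia difference was 0.11 in L3.6pl (interval -0.21 to 0.43; limma, adjusted p = 0.746) and 0.02 in FG (interval -0.29 to 0.34; adjusted p = 0.952). The lines differed by 0.03 in hypoxia and -0.05 in normoxia, and the second probe set moved by 0.18 in L3.6pl and 0.20 in FG, none of them called. Whether HAS2 transcripts were present at these intensities was not tested.

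**Figure D2:**
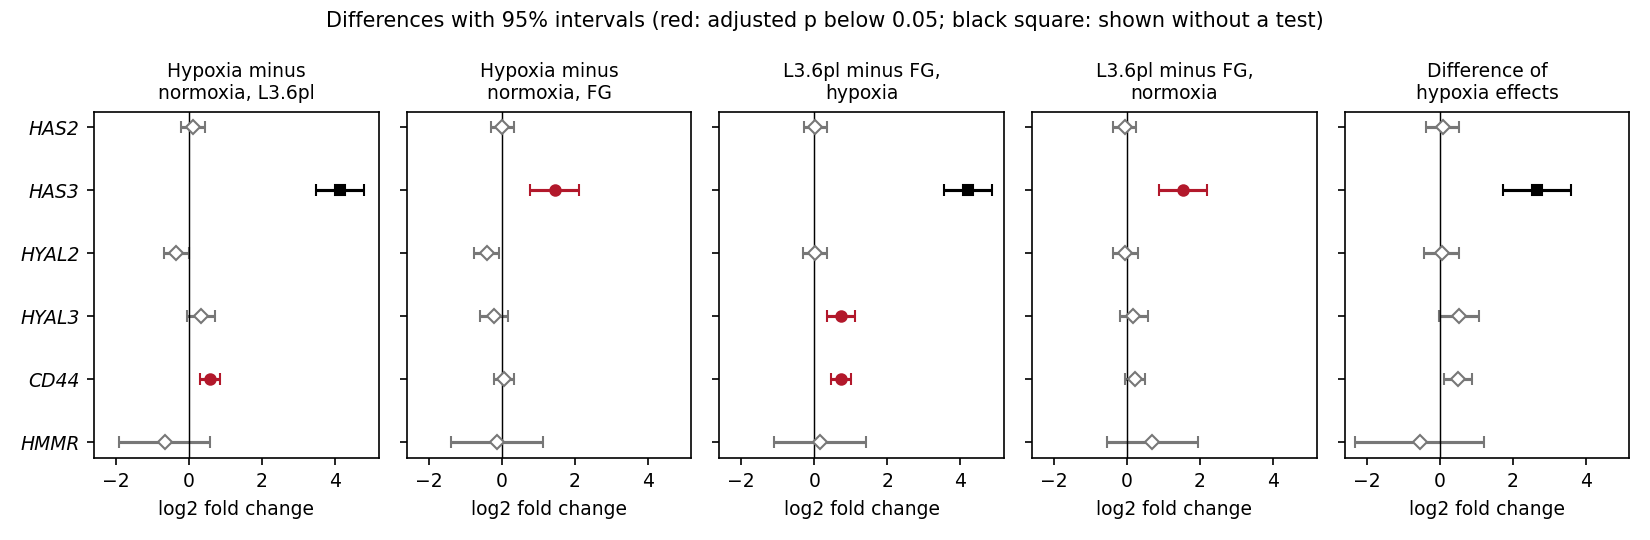
Log2 fold changes (horizontal axes) of the 6 genes in the 5 comparisons, with 95% intervals from the limma model; filled red points had an adjusted p below 0.05, open points did not, and black squares are HAS3 values shown without a test. HAS3 has the highest value in all panels, at 4.13 for hypoxia in L3.6pl and 1.45 in FG. HMMR has the widest intervals, which overlap those of HAS3 for hypoxia in FG and between the lines in normoxia.

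Genes whose centred log2 values lay closest to those of HAS3 over the 12 arrays were PLIN2, CEL, C11orf96, EREG and PLAU, with root-mean-square differences of 0.654, 0.745, 0.829, 0.843 and 0.888 log2 units. PLIN2, which coats lipid droplets, had group means of 11.53 in hypoxic and 8.59 in normoxic L3.6pl cells, and 8.77 in hypoxic and 6.67 in normoxic FG cells. CEL, a bile salt-dependent lipase of the exocrine pancreas, had 9.57 and 6.44 in hypoxic and normoxic L3.6pl cells, and 5.82 and 5.41 in hypoxic and normoxic FG cells. EREG, the EGFR ligand epiregulin, had 10.41 and 8.35 in L3.6pl and 8.09 and 5.90 in FG, again hypoxia before normoxia. PLAU, the urokinase plasminogen activator, had 10.17 and 7.95 in L3.6pl and 7.66 and 6.65 in FG in the same order. No other member had group means that spanned 1 log2 unit, so likeness is not given for them.

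The hyaluronidases moved little. HYAL2, the surface-anchored enzyme that cuts long chains, had 7.47, 7.16 and 7.76 in hypoxic L3.6pl cells, against 7.76, 7.86 and 7.82 in normoxic ones. In FG it had 7.35, 7.28 and 7.70 in hypoxia, against 7.89, 7.73 and 7.94 in normoxia. All hypoxic arrays were at or below the lowest normoxic array of their line, and non-overlapping groups were found for 24.4% of all genes in L3.6pl and 27.9% in FG. The differences were -0.35 ± 0.154 in L3.6pl (interval -0.69 to -0.01; limma, adjusted p = 0.218) and -0.41 ± 0.154 in FG (interval -0.75 to -0.07; adjusted p = 0.125), and neither was called. With array quality weights both were called, at -0.47 (adjusted p = 0.0129) in L3.6pl and -0.39 (adjusted p = 0.0199) in FG, in fits that called 15.7% and 17.6% of all genes lower. Between the lines HYAL2 differed by 0.02 in hypoxia and -0.04 in normoxia, with intervals of -0.32 to 0.36 and -0.38 to 0.30.

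HYAL3 was higher in L3.6pl than in FG in hypoxia. It had 5.88, 5.94 and 6.50 in hypoxic L3.6pl cells and 5.32, 5.17 and 5.67 in hypoxic FG cells, without overlap, as for 32.1% of all genes. The difference was 1.65-fold (0.72 ± 0.175; limma, adjusted p = 0.0166). The call was lost when FG hypoxia replicate 1 was left out (0.69, adjusted p = 0.0597), and likewise for replicate 2 (0.61, adjusted p = 0.0726). In normoxia HYAL3 had 5.87, 5.62 and 5.85 in L3.6pl and 5.68, 5.62 and 5.50 in FG, and these overlapping groups differed by 0.18 (limma, adjusted p = 0.641). Hypoxia minus normoxia was 0.32 in L3.6pl (adjusted p = 0.331) and -0.21 in FG (adjusted p = 0.548). The opposite signs were not called as a difference of the hypoxia effects (0.54 ± 0.247; limma, adjusted p = 0.696).

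HYAL2 and HYAL3 lie close together on chromosome 3. Of 12 listed genes around them, 10 were measured. For hypoxia 0 were called higher and 1 lower in each line, against 2.97% of all genes called lower in L3.6pl and 6.47% in FG. The 1 gene was IFRD2 in both lines. It fell by 0.82 ± 0.19 in L3.6pl (limma, adjusted p = 0.0269) and by 0.78 ± 0.19 in FG (adjusted p = 0.0247). Each call was lost when any of 4 single arrays of the same line was left out, at adjusted p up to 0.118 in L3.6pl and 0.086 in FG. The median log2 fold change of the 10 genes was 0.05 in L3.6pl and -0.10 in FG, against -0.02 and -0.03 for all genes.

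Of the receptors, CD44 was higher in hypoxic L3.6pl cells than in any other group. It had 10.25, 10.35 and 10.74 there, against 9.79, 9.88 and 9.90 in normoxic L3.6pl cells. In FG it had 9.59, 9.81 and 9.74 in hypoxia and 9.69, 9.63 and 9.61 in normoxia. The hypoxic L3.6pl arrays did not overlap any other group, while the FG groups overlapped each other. Over all genes, 24.4% did not overlap between hypoxic and normoxic L3.6pl cells, and 32.1% between the lines in hypoxia. CD44 rose 1.5-fold with hypoxia in L3.6pl (0.58 ± 0.123, interval 0.31 to 0.85; limma, adjusted p = 0.0174). Leaving HAS3 aside, it was the single called member there, in a comparison that called 6.86% of all genes.

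The CD44 call in L3.6pl depended on the normoxic arrays, since leaving out replicate 1, 2 or 3 of that group ended it (limma, adjusted p = 0.0586, 0.0659 and 0.0519). Without all 3 arrays that stood apart, CD44 was called at 0.40 (adjusted p = 0.0304), in a fit that called 7.89% of all genes higher. In FG the difference was 0.07 (interval -0.20 to 0.34; adjusted p = 0.822). Between the lines CD44 was 1.66-fold higher in L3.6pl in hypoxia (0.73 ± 0.123; limma, adjusted p = 0.00218), and this call held with any 1 array left out. In normoxia the lines differed by 0.22 (interval -0.05 to 0.49; adjusted p = 0.356), although their arrays did not overlap, as for 28.1% of all genes. The hypoxia effects differed by 0.51 ± 0.174, which was not called (adjusted p = 0.469; 0.108 with the block within oxygen condition).

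Leaving HAS3 aside, HYAL3 and CD44 were the 2 of the other 5 members called higher in L3.6pl than in FG in hypoxia, a comparison in which 16.7% of all genes were called and 10.0% were called higher. In normoxia HAS3 was the only one of 6, where 10.7% of all genes were called. These comparisons share their arrays with the hypoxia comparisons of each line. The lines did not overlap in hypoxia for HYAL3 and CD44, nor for 32.1% of all genes.

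CD44 had 13 probe sets, which differ in brightness. Where they lie on the transcript was not examined. They read 1 gene and are not independent of each other. In hypoxic L3.6pl cells the brightest had 10.25, 10.35 and 10.74, and the next had 10.22, 10.34 and 10.71. In L3.6pl, 4 of the 13 were called higher with hypoxia, by 0.55 to 0.61, when all probe sets were tested singly, against 3.33% of all probe sets. Another 9 were not called, and the 13 values ran from -0.32 to 0.61 with 10 positive, 3 negative and a median of 0.38. The brightest was among the called ones, and the smallest adjusted p was that of another (0.61 ± 0.105; limma over all probe sets, adjusted p = 0.00849).

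In FG, 0 of 13 CD44 probe sets were called by limma for hypoxia, with values from -1 to 0.52 and a median of 0.02, against 4.90% of all probe sets called higher and 6.53% called lower. Of these 13, 3 had an unadjusted p below 0.05. The lowest value was -1 ± 0.317 (adjusted p = 0.0697), and in L3.6pl the same probe set was at -0.32 (adjusted p = 0.655). In hypoxia, 5 of 13 were called higher in L3.6pl than in FG, by 0.64 to 0.76, against 7.77% of all probe sets. With the mean of all 13 probe sets, CD44 was at 0.30 for hypoxia in L3.6pl and was not called (adjusted p = 0.107), while the difference between the lines in hypoxia was 0.42 and still called.

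**Figure D3:**
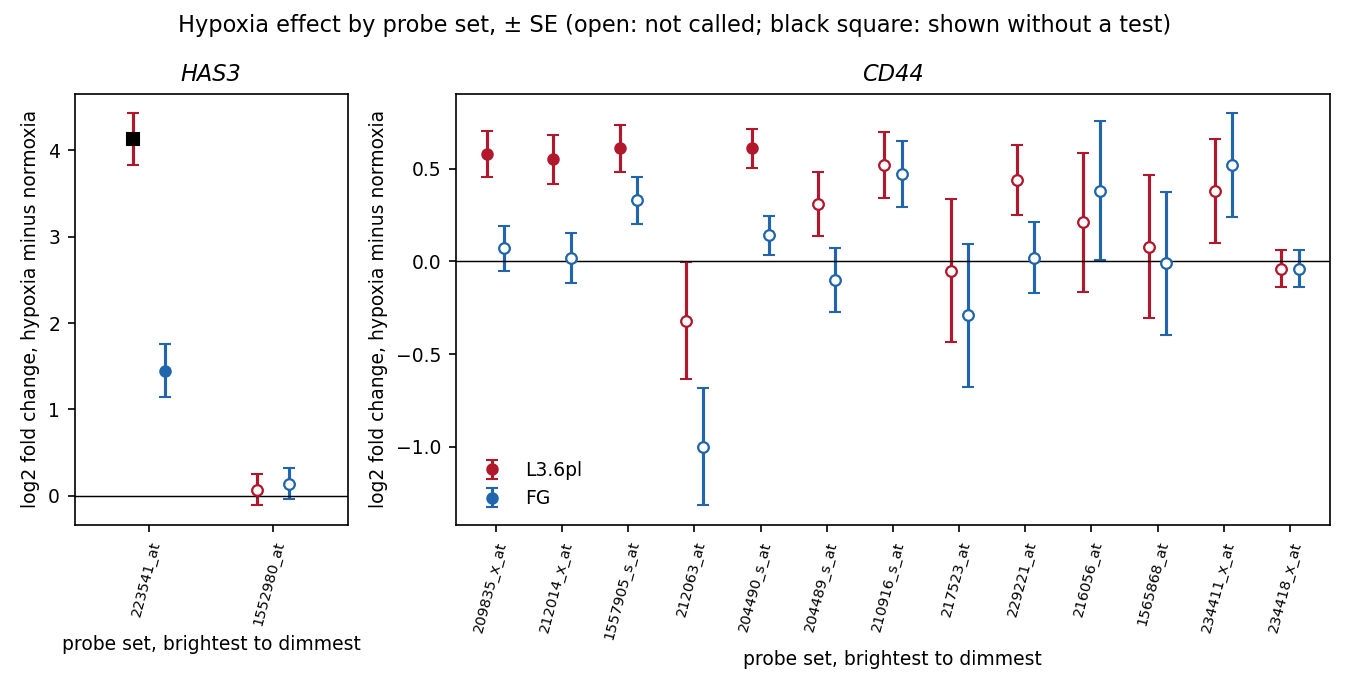
Hypoxia minus normoxia (vertical axes, log2 fold change ± SE) for each probe set of HAS3 and CD44 in L3.6pl and FG, ordered from brightest to dimmest; filled points were called over all probe sets, and the black square is shown without a test. For HAS3 the brighter probe set lies far above the dimmer one in both lines, and for CD44 the 4 filled points, 0.55 to 0.61, are all of L3.6pl.

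HMMR, the receptor that is also a spindle protein, varied more within groups than between them. It had 10.69, 10.40 and 10.63 in hypoxic L3.6pl cells and 10.57, 11.76 and 11.41 in normoxic ones. In FG it had 10.71, 9.93 and 10.61 in hypoxia and 8.93, 11.40 and 11.31 in normoxia. Replicate 1 was the lowest array of both normoxic groups, and the hypoxic and normoxic groups overlapped in both lines. The differences were -0.67 in L3.6pl (interval -1.92 to 0.58; limma, adjusted p = 0.579) and -0.13 in FG (interval -1.38 to 1.12; adjusted p = 0.933).

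Without FG normoxia replicate 1, the HMMR difference in FG was -0.94 (limma, adjusted p = 0.0943), and it was 0.30 without replicate 2 and 0.25 without replicate 3 of that group. Without the 3 arrays that stood apart, HMMR was called lower in hypoxia in both lines, at -1.04 in L3.6pl (adjusted p = 0.0162) and -0.94 in FG (adjusted p = 0.0175), where 13.2% and 12.5% of all genes were called lower. Those 3 arrays include the lowest normoxic array of each line for HMMR, so leaving them out lowers both differences by construction. L3.6pl minus FG was 0.16 in hypoxia (adjusted p = 0.902) and 0.70 in normoxia (adjusted p = 0.563), and the normoxic value was -0.11 without FG normoxia replicate 1. The dimmer HMMR probe set had hypoxia differences of -0.91 in L3.6pl and -0.29 in FG, neither called.

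Genes of mitosis showed the same arrays as high or low. The mean log2 intensity of 20 such genes was 8.96, 8.73 and 9.11 in hypoxic L3.6pl cells and 9.15, 10.25 and 9.99 in normoxic ones. In FG it was 9.49, 8.88 and 9.34 in hypoxia and 8.01, 10.17 and 10.09 in normoxia. The lowest array was FG normoxia replicate 1, as for HMMR. BRCA1, a DNA repair gene with higher transcript levels in dividing cells, was the 1 of 20 called lower with hypoxia in each line, at -1.70 ± 0.317 in L3.6pl (limma, adjusted p = 0.0103) and -1.43 ± 0.317 in FG (adjusted p = 0.0161), against 2.97% and 6.47% of all genes called lower. Each BRCA1 call was lost without any of a few single arrays of the same line, 2 for L3.6pl (adjusted p up to 0.056) and 3 for FG (up to 0.0689). Without the 3 arrays that stood apart, 18 of the 20 were called lower in L3.6pl and 14 in FG, with medians of -1.15 and -0.83 in place of -0.82 and -0.12, against the same 13.2% and 12.5% of all genes. Those 3 arrays held the lowest normoxic mean of each line for these genes (9.15 and 8.01) and the highest hypoxic L3.6pl mean (9.11). Leaving them out lowers the mean difference in both lines by construction, so these counts are no separate test. Without FG normoxia replicate 1 alone, 5 were called lower in each line, against 4.48% of all genes in L3.6pl and 6.16% in FG. What set that array apart was not tested.

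**Figure D4:**
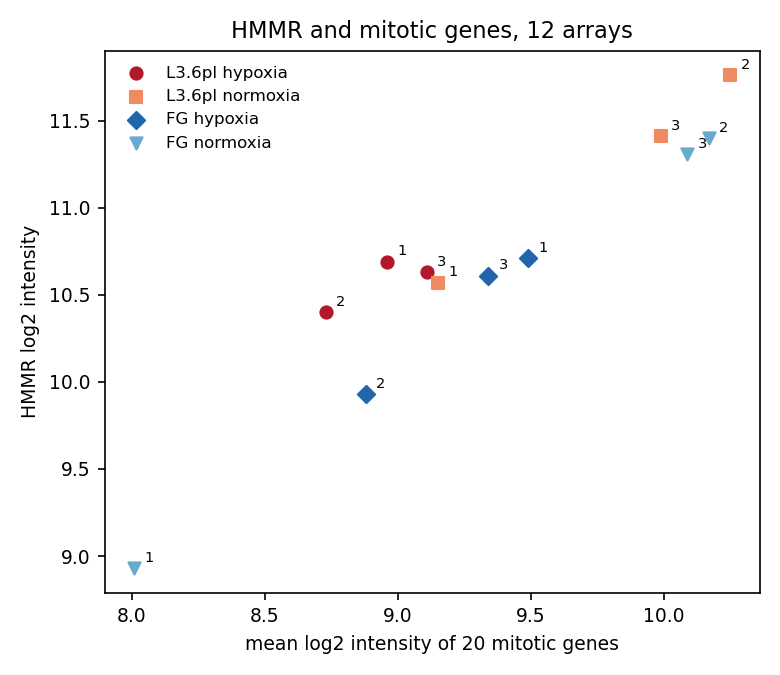
HMMR log2 intensity (vertical axis) against the mean log2 intensity of 20 mitotic genes (horizontal axis) on each of the 12 arrays, numbered by replicate. FG normoxia replicate 1 is lowest on both axes, at 8.93 and 8.01, and the remaining normoxia arrays, except replicate 1 of L3.6pl, are highest on both.

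The sugar precursors of hyaluronan come from glucose through hexokinases, phosphoglucomutases and the hexosamine pathway. Of 12 listed genes of these steps, 10 were measured. With hypoxia, 5 rose and 1 fell in L3.6pl, where 3.89% of all genes were called higher and 2.97% lower. In FG 3 rose and 0 fell, where 4.24% of all genes were called higher. GPI, glucose phosphate isomerase, which is also a glycolytic enzyme, rose 2.34-fold in L3.6pl (1.22 ± 0.102; limma, adjusted p = 0.000197) and 2.14-fold in FG (1.10 ± 0.102; adjusted p = 0.000207). PGM1, the phosphoglucomutase that makes glucose 1-phosphate, rose by 0.85 ± 0.125 in L3.6pl (adjusted p = 0.00323). In FG it rose by 0.47 ± 0.125 (adjusted p = 0.0377), a call lost without any of 6 single arrays, at adjusted p up to 0.142. HK1, a hexokinase, rose by 0.58 ± 0.0983 in L3.6pl (adjusted p = 0.00684).

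HK2, the hexokinase known as inducible by hypoxia-inducible factors, was up by 1.86 ± 0.283 in L3.6pl (limma, adjusted p = 0.00371) and 2.47 ± 0.283 in FG (adjusted p = 0.000587) with its main probe set. With the mean of its probe sets the HK2 values were 0.11 (adjusted p = 0.525) and 0.49 (adjusted p = 0.00597). GNPNAT1, which acetylates glucosamine 6-phosphate, was the gene that fell in L3.6pl, by 1.28 ± 0.236 (adjusted p = 0.00962), which was not called when L3.6pl normoxia replicate 2 was left out (adjusted p = 0.0536). The median over the 10 genes was 0.48 in L3.6pl and 0.29 in FG, against -0.02 and -0.03 over all genes.

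Between the lines in hypoxia, PGM1 was higher in L3.6pl, by 0.68 ± 0.125 (limma, adjusted p = 0.00372), and UGDH and GNPNAT1 were lower. UGDH, the dehydrogenase that makes UDP-glucuronic acid, had 7.03, 7.17 and 8.01 in hypoxic L3.6pl cells and 9.00, 9.29 and 9.01 in hypoxic FG cells. The UGDH groups did not overlap, as for 32.1% of all genes, and the difference was -1.70 ± 0.274 (limma, adjusted p = 0.0017). In normoxia UGDH had 7.82, 8.17 and 8.39 in L3.6pl and 8.46, 8.83 and 9.29 in FG, again without overlap, as for 28.1% of all genes. That difference of -0.74 ± 0.274 was not called (adjusted p = 0.129), but was with the block within oxygen condition (adjusted p = 0.027). GNPNAT1 was at -1.45 ± 0.236 in hypoxia (adjusted p = 0.00181) and at -0.86 ± 0.236 in normoxia (adjusted p = 0.0405), and the normoxic call ended without any of 9 single arrays, at adjusted p up to 0.145. So 1 of the 10 was called higher and 2 lower in hypoxia, against 10.0% and 6.72% of all genes. In normoxia limma called 0 higher and 1 lower, against 5.16% and 5.54% of all genes, and 5 of the 10 had an unadjusted p below 0.05. With the block within oxygen condition, 3 were called higher and 3 lower in hypoxia, where 30.0% of all genes were called, and 1 higher and 3 lower in normoxia, where 23.1% were.

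Other turnover genes include CEMIP, a secreted protein needed for hyaluronan breakdown in fibroblasts, and its membrane-bound relative CEMIP2. Of 7 listed, 6 were measured. CEMIP was higher in L3.6pl under both conditions. It had 9.72, 10.54 and 9.92 in hypoxic L3.6pl cells and 7.01, 7.83 and 8.56 in hypoxic FG cells. In normoxia CEMIP had 8.91, 8.81 and 9.26 in L3.6pl and 7.86, 6.99 and 6.65 in FG. The lines did not overlap, as for 32.1% of all genes in hypoxia and 28.1% in normoxia. The differences were 4.79-fold in hypoxia (2.26 ± 0.396; limma, adjusted p = 0.00283) and 3.55-fold in normoxia (1.83 ± 0.396; adjusted p = 0.0136). In normoxia it was not called when FG replicate 2 (adjusted p = 0.0535) or L3.6pl replicate 3 (adjusted p = 0.0576) was left out, and the value was 1.12 with the mean of its probe sets.

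CEMIP2 was also higher in hypoxic L3.6pl than in hypoxic FG cells, by 0.71 ± 0.16 (limma, adjusted p = 0.0118), although not without FG hypoxia replicate 2 (adjusted p = 0.0504). It was the 1 turnover gene called for hypoxia, in FG, where it fell by 0.56 ± 0.16 with an adjusted p just under the threshold (0.05 when rounded). That call ended without any of 9 single arrays, with adjusted p up to 0.166, and after either of 2 rescalings of the arrays. Over all genes in FG, 10.7% were called for hypoxia and 6.47% were called lower. In L3.6pl limma called 0 of the 6 for hypoxia, against 6.86% of all genes, and 1 had an unadjusted p below 0.05. The 2 members called higher in hypoxic L3.6pl compare with 10.0% of all genes, and the 1 in normoxia with 5.16%.

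Of 23 other hyaluronan-binding proteins and receptors, limma called 1 for hypoxia in L3.6pl, against 6.86% of all genes, and 0 in FG, against 10.7%, where 1 had an unadjusted p below 0.05. C1QBP, a mitochondrial protein that also binds hyaluronan, fell by 0.93 ± 0.225 in L3.6pl (limma, adjusted p = 0.033), and the call ended without any of 6 single arrays, at adjusted p up to 0.134. TLR2, a receptor of innate immunity that senses hyaluronan fragments, was higher in L3.6pl than in FG by 0.73 ± 0.168 in hypoxia (limma, adjusted p = 0.0132) and 1.13 ± 0.168 in normoxia (adjusted p = 0.0016). HABP2, a hyaluronan-binding serine protease, was higher by 0.34 ± 0.0846 in hypoxia (adjusted p = 0.0196), though not without any of 3 single arrays, at adjusted p up to 0.0774. Group means were 4.83 to 5.96 for TLR2 and 4.95 to 5.30 for HABP2, below 6.25, the median of all genes. So 2 of the 23 were called higher in L3.6pl in hypoxia, against 10.0% of all genes, and 1 in normoxia, against 5.16%. The medians of the 23 lay between -0.02 and 0.07 in the 4 two-group comparisons.

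Genes that act on CD44 itself, in its splicing, shedding, anchoring to actin or as further ligands, were 15 of 16 measured. In L3.6pl 3 rose with hypoxia and 0 fell, against 3.89% and 2.97% of all genes, and in FG 1 rose and 1 fell, against 4.24% and 6.47%. EZR, the membrane linker ezrin, rose by 0.96 ± 0.166 (limma, adjusted p = 0.00742), SPP1, the CD44 ligand osteopontin, by 1.37 ± 0.302 (adjusted p = 0.0217), and ADAM17, a shedding protease, by 0.69 ± 0.163 (adjusted p = 0.0286). The SPP1 and ADAM17 calls in L3.6pl each ended without any of 4 single arrays, with adjusted p up to 0.101 and 0.119, and EZR was not called with the mean of its probe sets (0.90, adjusted p = 0.0508). In FG EZR was at 0.55 (adjusted p = 0.0592), and at 1.03 (adjusted p = 0.0218) with the mean of its probe sets. In FG ADAM17 rose by 0.77 ± 0.163 (adjusted p = 0.0128), and ADAM10, which also cuts CD44, fell by 0.79 ± 0.208 (adjusted p = 0.0357). These FG calls ended without any of 3 single arrays for ADAM17 (adjusted p up to 0.0625) and 8 for ADAM10 (up to 0.122). The median of the 15 was 0.04 in L3.6pl and -0.02 in FG.

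SPP1 had 12.17, 11.96 and 11.77 in hypoxic L3.6pl cells and 9.71, 9.06 and 10.20 in hypoxic FG cells. These groups did not overlap, as for 32.1% of all genes, and differed 4.96-fold (2.31 ± 0.302; limma, adjusted p = 0.00047). In normoxia SPP1 had 11.09, 10.15 and 10.55 in L3.6pl and 10.28, 9.80 and 10.41 in FG, groups that overlapped. Its hypoxia effects differed by 1.88 (limma, adjusted p = 0.222), which was called with the block within oxygen condition (SE 0.326, adjusted p = 0.0267). With that block 2 of the 15 genes, ADAM10 and SPP1, were called for a difference of effects, where 3.55% of all genes were. LGALS9, a galectin that binds CD44, was higher in L3.6pl by 1.19 ± 0.151 in hypoxia (adjusted p = 0.000376) and 1.10 ± 0.151 in normoxia (adjusted p = 0.000963).

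RDX, the linker radixin, was lower in L3.6pl, at -0.94 ± 0.13 in hypoxia (limma, adjusted p = 0.000645) and -1.02 ± 0.13 in normoxia (adjusted p = 0.000585). RBM3, a cold-inducible RNA-binding protein, was at -0.92 ± 0.127 (adjusted p = 0.000664) and -0.79 ± 0.127 (adjusted p = 0.0026), and its normoxic call ended with the mean of its probe sets (-0.51, adjusted p = 0.0966). Of the 15 genes, 2 were thus higher and 2 lower in L3.6pl in hypoxia, against 10.0% and 6.72% of all genes, and 1 higher and 2 lower in normoxia, against 5.16% and 5.54%. With the block within oxygen condition these counts were 2 and 4 in hypoxia, where 30.0% of all genes were called, and 1 and 6 in normoxia, where 23.1% were.

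**Figure D5:**
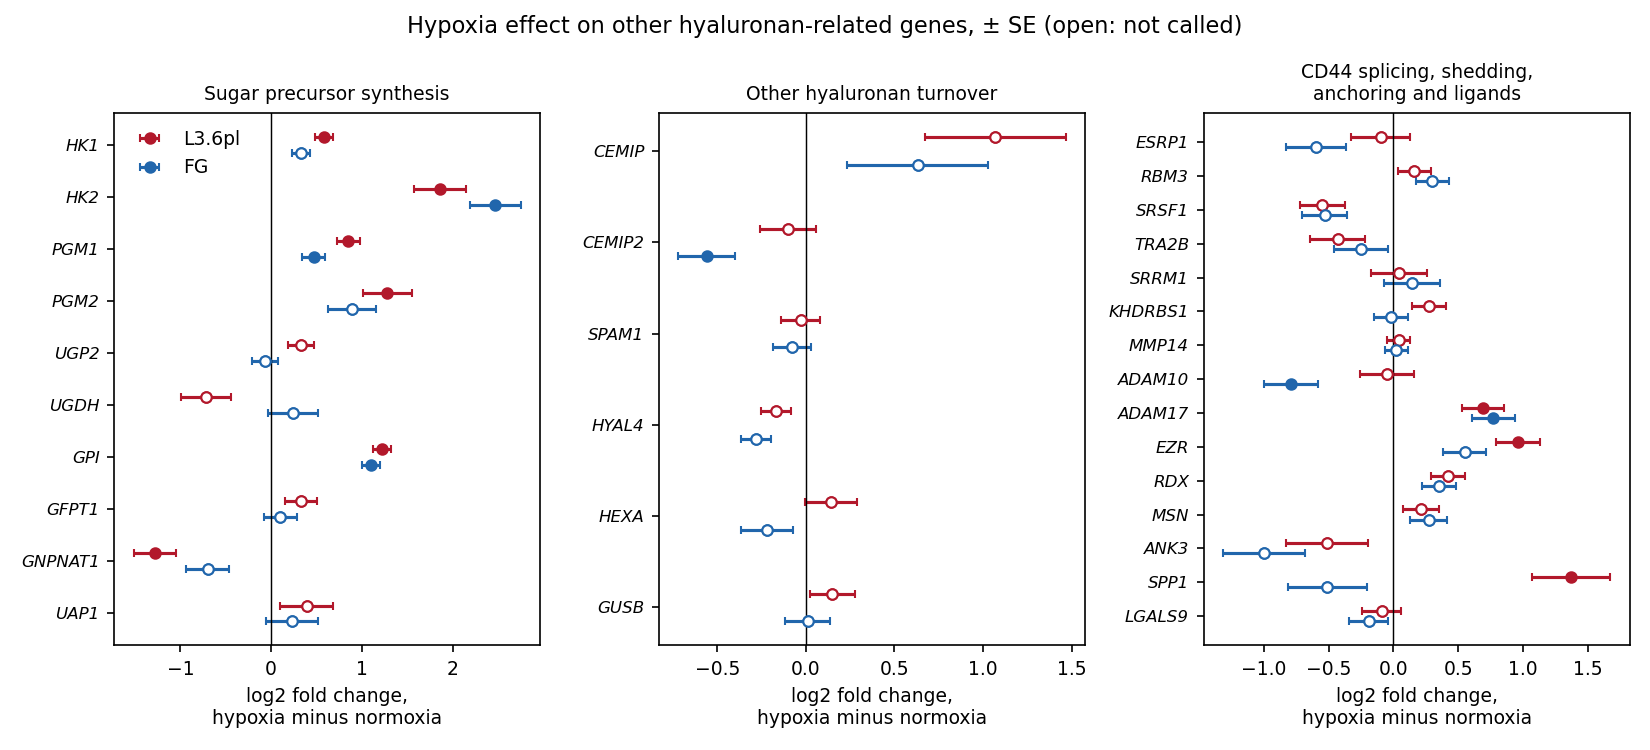
Hypoxia minus normoxia (horizontal axes, log2 fold change ± SE) in L3.6pl and FG for measured genes of sugar precursor synthesis, other hyaluronan turnover, and CD44 splicing, shedding, anchoring and ligands; filled points were called. GPI is filled in both lines at 1.22 and 1.10, and GNPNAT1 has a filled point for L3.6pl at -1.28.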

How the data were processed

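Total RNA was extracted with Trizol and biotin-labelled, per the labels' protocols, and measured on 12 Affymetrix arrays with 54675 probe sets. The deposited values are linear intensities, normalized with RMA per the submitters' processing notes, with no version given. The step that made RMA values linear is not recorded in those notes. Median intensities per array lay between 39.1 and 41.4, and log2 was taken without rescaling. Precision is limited by having 3 arrays a group.

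The platform's annotation named the probe sets, with 41091 giving exactly 1 gene, 1801 several and 11721 none. The one with the highest mean was kept for each of 19775 genes. All arrays entered 1 model in limma 3.58.1 (R 4.3.3) with a mean per group and eBayes (8 residual and 2.72 prior degrees of freedom), tested on simulated data first. With 3 arrays a group, 0.1 is the smallest two-sided p of an exact permutation test.

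The members, the lists and the tests were chosen with earlier results of these data known. Every member is named. From each list up to 4 called genes per comparison with the smallest adjusted p are named.

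Of 18 same-numbered pairs of arrays from different groups, 10 had deviations from the group means that correlated above 0.1 (range -0.239 to 0.735). Between the lines within an oxygen condition all did, at 0.358, 0.444 and 0.462 in hypoxia and 0.735, 0.528 and 0.675 in normoxia, so a block of replicate number within oxygen condition was added, after the data were seen, for comparisons between the lines. Between hypoxia and normoxia they ran from -0.04 to 0.413 in L3.6pl and from -0.217 to 0.259 in FG, with replicate 3 above 0.1 in both lines. These comparisons were treated as unpaired, and whether they are is not known from the labels. Other alternatives were cyclic loess, median centring, averaging a gene's probe sets, single probe sets, leaving out dim genes, trended robust moderation, array weights, a replicate block, only the groups compared, an adjusted p below 0.01, and leaving out single arrays or the 3 that stood apart.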

Additional observations from a re-analysis of the deposited data

How the results depend on the processing

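Over 662 values of 6 genes in 5 comparisons under alternative settings, 609 kept direction and side of the threshold, 8 lost and 9 gained a call, and 36 uncalled values changed sign. Leaving out an array from outside the compared groups cannot change their log2 fold change. Averaging probe sets cannot change that of HYAL2 or HYAL3. Part of the agreement was thus fixed in advance, and these counts do not measure stability. These counts include HAS3, whose values in hypoxic L3.6pl cells were known when the family was chosen, so that its calls for hypoxia in L3.6pl, for the lines in hypoxia and for the difference of hypoxia effects are no test and say nothing of stability. In FG, 1 member was called for hypoxia, and 2 with array weights (HAS3 and HYAL2) or without the 3 arrays that stood apart (HAS3 and HMMR), but 0 at an adjusted p below 0.01. These settings called 29.0%, 19.6% and 4.35% of all genes, against 10.7% in the main fit. Leaving HAS3 aside, CD44 was the 1 member called for hypoxia in L3.6pl in the main fit. It was not called with the mean of all probe sets, with only the groups of the comparison, or at an adjusted p below 0.01. These settings called 7.12%, 4.03% and 2.40% of all genes, against 6.86% in the main fit. CD44 was also not called without L3.6pl normoxia replicate 1, 2 or 3, where 4.69%, 2.57% and 3.71% of all genes were. L3.6pl against FG in normoxia had 1 member called, and 2 with array weights, which added CD44. That fit called 33.5% of all genes, against 10.7% in the main fit. For the difference of hypoxia effects, leaving HAS3 aside, 0 of the other members were called in any of these settings. With dim genes left out, 4 members, HAS3 among them, remained. The share of all genes called ran from 0.0101% to 3.55% over the settings. With only the groups compared, HYAL3 in hypoxia had an adjusted p of 0.0658. The planned replicate block left the number of members called at 1, 2, 3, 1 and 0 in the 5 comparisons. It called 15.1%, 10.8%, 21.4%, 14.2% and 0.0657% of all genes in them. The block within oxygen condition changed no call of a member other than HAS3. It raised the count over all genes to 5935 from 3310 in hypoxia, to 4576 from 2116 in normoxia and to 703 from 5 for the difference of effects. Over all genes in FG, hypoxia called 838 higher and 1279 lower, 1087 and 1084 after cyclic loess, and 1149 and 1109 after median centring. Dim probe sets, such as those of HAS2, limit what can be seen of small changes. The causes of these dependences were not tested.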
